A study of Mus musculus with 9 samples.

Results

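Glucose uptake and glycolysis were followed through 10 genes in spermatogonial stem cells (SSC), in induced pluripotent stem cells derived from SSC (SSCiPSC) and in induced pluripotent stem cells derived from fetal fibroblasts (fiPSC). They were Slc2a1, Slc2a3, Hk1, Hk2, Gpi1, Pfkp, Pfkl, Aldoa, Pkm and Pdk1, 10 of the 14037 protein-coding genes that had a locus among the 54913 loci of the RNA-seq table. Each gene was found by the coordinates of its locus against GRCm38 gene coordinates, and where several loci held at least 50% of its coding sequence the one with the highest mean of the 9 libraries was taken. Of these, 8 encode transporters and enzymes of the steps from glucose entry to aldolase, whereas Pkm and Pdk1 belong to later steps.

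The RNA-seq data comprised 9 libraries, 3 each of SSC, SSCiPSC and fiPSC. All cells came from 1 mouse strain that carries both Gt(ROSA)26Sortm1(rtTA*M2)Jae and the allele Col1a1tm3(tetO-Pou5f1,-Sox2,-Klf4,-Myc)Jae. In it the ubiquitous Rosa26 promoter drives a doxycycline-dependent activator of a Pou5f1, Sox2, Klf4 and Myc transgene in the Col1a1 locus. SSC were primary cells (passage 0) of pup testes taken 6 days after birth, enriched with magnetic beads for the surface receptor Gfra1 and not reprogrammed. SSCiPSC and fiPSC were lines grown from picked colonies in embryonic stem cell medium with LIF, induced with doxycycline that was later withdrawn according to the study's methods. The labels still list doxycycline and give passages 10 to 11, whereas the methods give a later passage and a purification for SSEA1. The fibroblasts of origin came from male fetuses and have no library here, so fiPSC could not be set against their own starting cells. Nothing in the labels states whether the libraries of a group were separate animals or lines, so p-values measure the spread between these libraries. The values are FPKM, fragments per kilobase of transcript and 1000000 mapped fragments, as deposited.

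Glycolysis turns glucose into pyruvate. Facilitative transporters of the SLC2A family carry glucose into the cell, hexokinases trap it as glucose 6-phosphate, an isomerase and phosphofructokinase make fructose 1,6-bisphosphate, and aldolase splits that sugar into triose phosphates. Pyruvate kinase forms pyruvate at the end of the pathway, and pyruvate dehydrogenase kinases restrain its entry into the mitochondrial citric acid cycle. Mouse pluripotent stem cells are known for active glycolysis even in the presence of oxygen, and several of these genes are known targets of hypoxia-inducible factors, which bind DNA at a short core motif.

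Promoter sequence from RefSeq (GRCm38.p6) was available for 9 of the 10 genes, in 14 windows that each ran from 250 to 31 bases before a transcription start. The windows of a glucose transporter, a hexokinase, a phosphofructokinase and a pyruvate dehydrogenase kinase are shown because they hold the core motif and belong to genes that were all higher in iPSC than in SSC. Capitals mark the letters ACGTG or GCGTG on either strand, so that CACGT and CACGC are the same motifs on the opposite strand.
Slc2a1, chr4:119108495-119108714, plus strand: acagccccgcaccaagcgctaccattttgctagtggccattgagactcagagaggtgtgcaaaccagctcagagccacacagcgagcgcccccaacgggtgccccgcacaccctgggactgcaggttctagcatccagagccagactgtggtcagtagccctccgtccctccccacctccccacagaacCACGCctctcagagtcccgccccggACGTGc
Hk2, chr6:82774485-82774704, minus strand: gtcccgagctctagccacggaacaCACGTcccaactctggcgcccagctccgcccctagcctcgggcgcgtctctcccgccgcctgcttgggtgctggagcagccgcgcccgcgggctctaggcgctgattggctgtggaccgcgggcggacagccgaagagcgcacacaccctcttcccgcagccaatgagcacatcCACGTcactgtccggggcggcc
Pfkp, chr13:6648802-6649021, minus strand: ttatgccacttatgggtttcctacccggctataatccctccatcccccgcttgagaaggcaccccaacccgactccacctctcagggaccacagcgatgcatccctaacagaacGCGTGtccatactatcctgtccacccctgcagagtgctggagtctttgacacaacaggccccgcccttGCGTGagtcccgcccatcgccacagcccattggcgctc
Pdk1, chr2:71872974-71873193, plus strand: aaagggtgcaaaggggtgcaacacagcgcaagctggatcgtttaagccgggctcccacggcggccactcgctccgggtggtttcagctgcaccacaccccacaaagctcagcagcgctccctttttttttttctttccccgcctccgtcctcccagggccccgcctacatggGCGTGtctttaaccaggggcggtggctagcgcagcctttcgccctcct
The window of Slc2a1 held both motifs, that of Hk2 held ACGTG at 2 positions, that of Pfkp held GCGTG at 2 positions, and the Pdk1 window shown held GCGTG at 1. The other Pdk1 window and the only window of Gpi1, a gene that was higher in iPSC too, held neither motif. Of the 14 windows of the 9 genes, 9 held either motif (64.3%), as did 34.7% of all 32851 windows of the same length. ACGTG stood in 14.4% and GCGTG in 25.1% of all windows. The longer motif CACGTG, which contains ACGTG and is bound by other factors too, was found in 0 of the 14 windows and in 5.01% of all windows. Windows of 1 gene can overlap, 2 of the 3 Aldoa windows do, and a match describes the letters in the window and not a bound site.

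Before the comparisons, the group labels were checked against marker genes. The SSC libraries carried Gfra1 at 37.7, 34.1 and 23.9 FPKM, and no iPSC library exceeded 0.171 FPKM. Dazl, a germ cell RNA-binding protein and the most abundant germ line marker in SSC, was at 194, 263 and 174 FPKM there. Nanog, a pluripotency factor, was listed at 0 in all 3 SSC libraries and lay between 270 and 483 FPKM in the 6 iPSC libraries. The summed level of 10 pluripotency markers was 97.7 to 108 FPKM in SSC, led by Klf4, and 2354 to 3009 FPKM in iPSC, led by Dppa5a, whose locus also covered Ooep. Pou5f1, Sox2 and Klf4 among them are also encoded by the transgene, and its part in their levels was not tested. Of the 12 germ line markers 3 were higher in SSCiPSC than in SSC, namely Etv5 (122.8 beside 32.8 FPKM), Sall4 (95.4 beside 37.2) and Kit (46.1 beside 9.71), given as group means, beside 26.2% of all loci called higher.

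Markers of other testis and blood cells were also present in SSC. The 9 Sertoli cell markers summed to 1204, 1219 and 1014 FPKM in SSC replicates 1, 2 and 3, with Clu the most abundant, and to at most 22.8 FPKM in any iPSC library, where Cst12 and Fshr were at 0. The 7 Leydig cell markers, led by Star, summed to 525, 367 and 869 FPKM in SSC and to at most 50.8 in iPSC, where Lhcgr and Nr5a1 were at 0. The loci of Star, Insl3 and Hsd3b1 also covered Lsm1, Jak3 and Hsd3b6, and those of the Sertoli markers Amh and Inha covered other genes too. A value per locus does not separate these genes. Red blood cell markers, led by Hbb-bs, summed to 2117, 510 and 4485 FPKM, mast cell markers, led by Tpsab1, to 105, 380 and 1031 FPKM, and macrophage markers, led by Lyz2, to 68.5, 20.7 and 245 FPKM in SSC. In limma, all 9 Sertoli and all 7 Leydig markers, 2 of the 3 red blood cell loci tested (Hbb-bs and Hbb-bt share 1 locus), 4 of 5 mast cell markers (the fifth, Kit, was higher) and 5 of 6 macrophage markers were lower in SSCiPSC than in SSC. Of these 30 loci, 19 were under 1 FPKM in all SSCiPSC libraries and so passed the filter on low values only through SSC, which makes the counts a description that is not read against the share of all loci. The same holds for 3 of 5 endothelial, 1 of 5 peritubular myoid and 4 of 12 germ line loci. Of the peritubular myoid markers (led by Acta2 in SSC) 2 of 5 were lower. Of the endothelial markers (led by Pecam1) 3 were lower and 1 higher of 5, and of the germ line markers 7 were lower and 3 higher of 12. The counts of lower loci in these lists are likewise not read against the share of all loci. No fibroblast or feeder locus was under 1 FPKM in all SSCiPSC libraries. Of those markers (led by Col3a1 in SSC and by Fn1 in iPSC) 5 were lower and 1 higher of 8. Over all loci, 24.1% were lower and 26.2% higher. The part of such cells in the levels of the glycolytic genes was not tested. Fewer cells of a type and less RNA per cell cannot be told apart in such bulk samples.

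Depth also moved with the groups. The low FPKM values fall on whole multiples of 1 fragment, which gave depths, in units of 1000000 fragments, of 1.77, 4.62 and 1.38 for SSC replicates 1 to 3, of 15.8, 13.7 and 15 for SSCiPSC and of 13.3, 17.6 and 15.4 for fiPSC. Taking the longest annotated transcript as its length, Pfkl, the member with the lowest mean level in SSC, rested on about 46 to 124 fragments per SSC library and on at least 5655 per iPSC library. Aldoa rested on at least 347 fragments in each SSC library. The part of depth in the differences was not tested.

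All 10 genes rose from SSC to SSCiPSC, by 2.25-fold (Gpi1) to 36.1-fold (Slc2a3) in the ratio of group means, and every SSCiPSC library lay above every SSC library for each of them. Of the 36544 loci tested, 26.2% were higher in SSCiPSC at a limma adjusted p below 0.05 and 31.1% were higher without overlap of the groups, so that a rise alone was common. Among 1 locus per protein-coding gene, 35.2% of 11277 were called higher. The median log2 fold change of the 10 genes was 3.0, beside 0.11 over all loci tested. Quantile normalization lowered the change of every one of the 10 in both comparisons with SSC, to between 0.26 (Gpi1) and 4.51 (Slc2a3) in SSCiPSC. Of the 10, 9 were at 1 FPKM or more in all 9 libraries, and only Pfkp, described below, passed the filter on low values through the iPSC libraries. The 10 genes together summed to 504, 574 and 555 FPKM in SSC, to 4859, 3415 and 4419 FPKM in SSCiPSC and to 4149, 4393 and 4371 FPKM in fiPSC. Aldoa and Pkm held 54.6% to 68.3% of that sum in every library.

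**Figure D1:**
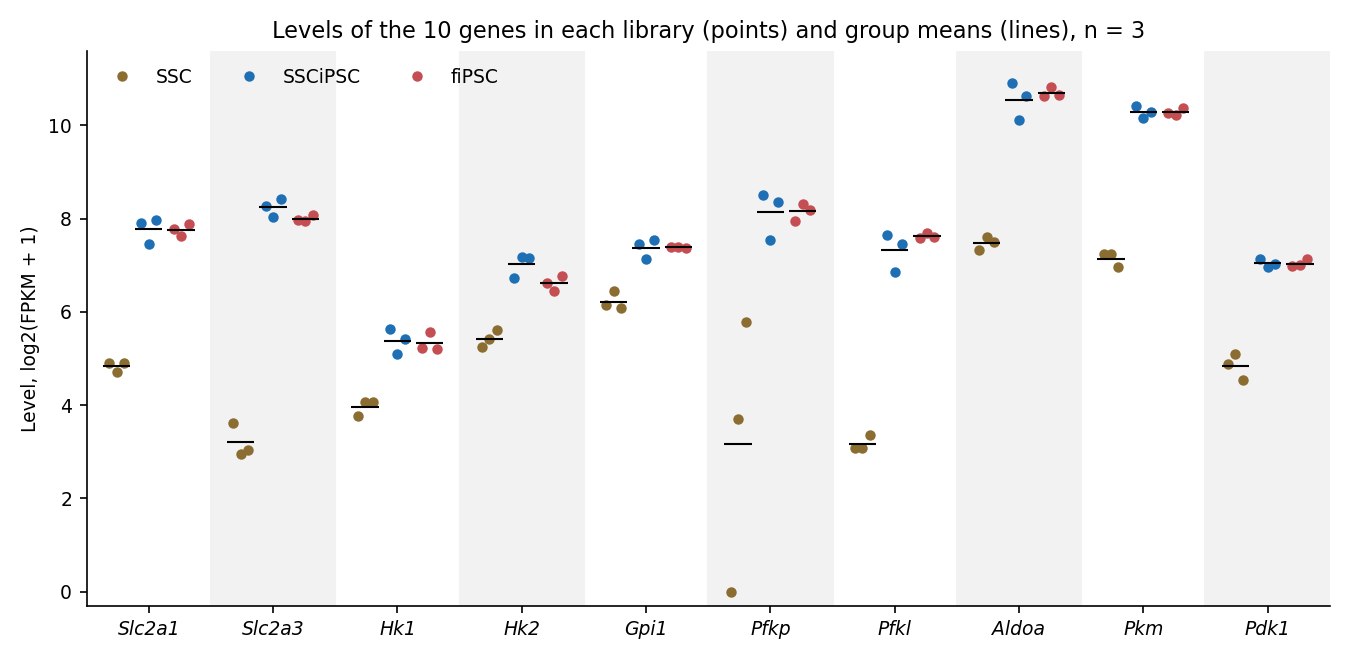
Level of each gene, as log2(FPKM + 1) on the vertical axis, in the 3 SSC, 3 SSCiPSC and 3 fiPSC libraries; each point is a library and each line the mean of 3. All SSC points lie under the iPSC points of the same gene, the SSCiPSC and fiPSC points of a gene overlap, and Pfkp (locus with the highest mean) spreads from 0 to 53.8 FPKM in SSC.

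Both glucose transporters rose, by 8.01-fold (Slc2a1) and 36.1-fold (Slc2a3) in SSCiPSC. Slc2a1 (ENSMUSG00000028645, GLUT1, chr4:119106107-119137423, plus strand), the widely used basal glucose transporter, was at 28.8, 25.3 and 28.8 FPKM in SSC, 239, 174 and 250 FPKM in SSCiPSC and 218, 197 and 237 FPKM in fiPSC. The lowest iPSC library was thus 6.07-fold above the highest SSC library. Its log2 fold change was 2.94 ± 0.17 (SE, limma adjusted p = 9.43e-05) in SSCiPSC and 2.93 ± 0.11 (adjusted p = 2.88e-05) in fiPSC, each against the same SSC libraries. After quantile normalization it was 2.23 and 2.30, both past the threshold.

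Slc2a3 (ENSMUSG00000003153, GLUT3, chr6:122727764-122743485, minus strand) encodes a high-affinity glucose transporter known from neurons and early embryos. It was at 11.4, 6.69 and 7.19 FPKM in SSC, 306, 262 and 343 FPKM in SSCiPSC and 248, 245 and 270 FPKM in fiPSC. SSC replicate 1 was the highest of its group, yet far below any iPSC library. The log2 fold change was 5.04 ± 0.22 (SE, limma adjusted p = 4.55e-05) in SSCiPSC and 4.79 ± 0.20 (adjusted p = 3.70e-05) in fiPSC.

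The order of the transporters turned over between the groups. As a ratio to Slc2a1 in FPKM, Slc2a3 reached 0.395, 0.265 and 0.250 in SSC, whereas the SSCiPSC ratios were 1.28, 1.5 and 1.37, so the groups did not overlap. In fiPSC the ratio was 1.14, 1.24 and 1.14. The log2 ratio within a library was -1.63 ± 0.32 (SD, n = 3) in SSC and 0.47 ± 0.11 (SD, n = 3) in SSCiPSC, a difference of 2.1 (exact permutation test, two-sided, p = 0.1, adjusted p = 0.188 over 15 tests). With 3 against 3 libraries 0.1 is the smallest p this test can give.

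The hexokinases rose less than the transporters did in the group means. Hk1 (ENSMUSG00000037012, chr10:62269002-62340510, minus strand), the hexokinase most tissues express, was at 12.5, 15.9 and 15.8 FPKM in SSC, 48.6, 33.3 and 41.7 FPKM in SSCiPSC and 36.5, 46.8 and 36.0 FPKM in fiPSC. Hk2 (ENSMUSG00000000628, chr6:82736574-82774786, minus strand), the inducible form bound to mitochondria, was at 36.8, 41.6 and 48.0 FPKM in SSC, 104, 144 and 141 FPKM in SSCiPSC and 97.6, 85.8 and 108 FPKM in fiPSC. Its locus held 55.5% of the coding sequence of the gene. For both genes the SSC libraries lay below all iPSC libraries. The log2 fold change in SSCiPSC was 1.41 ± 0.19 (SE, limma adjusted p = 0.00128) for Hk1 and 1.60 ± 0.18 (adjusted p = 0.000638) for Hk2. In fiPSC it was 1.37 ± 0.16 for Hk1 and 1.19 ± 0.14 for Hk2, both past the threshold. Quantile normalization lowered the change of Hk2 to 0.89 in SSCiPSC and 0.62 in fiPSC, both still past the threshold. Hk2 stood at 2.62 to 3.03 times the FPKM of Hk1 in SSC, 2.15 to 4.34 times in SSCiPSC and 1.84 to 3.01 times in fiPSC. These ranges overlapped, and the log2 ratio differed by 0.18 between SSCiPSC and SSC (exact permutation test, two-sided, p = 0.6) and by -0.041 without SSCiPSC replicate 2.

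Gpi1 (ENSMUSG00000036427, chr7:34201997-34230567, minus strand), the isomerase that turns glucose 6-phosphate into fructose 6-phosphate, changed least of the 10 in SSCiPSC. It was at 69.4, 86.2 and 66.7 FPKM in SSC, 174, 140 and 185 FPKM in SSCiPSC and 167, 167 and 165 FPKM in fiPSC. The groups of SSC and iPSC did not overlap, and the coefficient of variation of the fiPSC libraries was 0.81%. The log2 fold change was 1.16 ± 0.17 (SE, limma adjusted p = 0.0017) in SSCiPSC and 1.16 ± 0.12 (adjusted p = 0.000495) in fiPSC. After quantile normalization the change in SSCiPSC was 0.26 and no longer past the threshold (adjusted p = 0.245), and in fiPSC it was 0.38 (adjusted p = 0.0358).

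Phosphofructokinase commits glucose to glycolysis, and its liver and platelet subunits both moved from low to high levels. Pfkl (ENSMUSG00000020277, chr10:77987821-78009768, minus strand), the liver-type subunit, was at 7.45, 7.49 and 9.25 FPKM in SSC, 200, 115 and 174 FPKM in SSCiPSC and 190, 206 and 194 FPKM in fiPSC. The lowest iPSC library was 12.5-fold above the highest SSC library. Its log2 fold change was 4.15 ± 0.23 (SE, limma adjusted p = 8.25e-05) in SSCiPSC and 4.45 ± 0.12 (adjusted p = 1.24e-05) in fiPSC.

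Pfkp (ENSMUSG00000021196, chr13:6580450-6648791), the platelet-type subunit, had 5 loci of the same interval, 1 on the minus strand of the gene and 4 without a strand. The locus with the highest mean had no strand and was at 0, 12.1 and 53.8 FPKM in SSC, 363, 185 and 328 FPKM in SSCiPSC and 246, 319 and 291 FPKM in fiPSC. SSC replicates thus differed by far more than for any other gene here. The log2 fold change was 4.97 ± 1.35 (SE, limma adjusted p = 0.0218) in SSCiPSC, and this call was lost with a pseudocount of 0.1 (log2 fold change 6.12, adjusted p = 0.0701) and when any SSCiPSC library was left out (4.79 to 5.27, adjusted p between 0.0559 and 0.0713). Leaving out an SSC library moved the value more, to 3.39 without replicate 1 and to 6.28 without replicate 3, with the call kept. In fiPSC the log2 fold change on this locus was 4.99 ± 1.37 (SE, limma adjusted p = 0.0229), a call lost with a pseudocount of 0.1, without SSC replicate 2 and without any 1 of the fiPSC libraries (adjusted p between 0.0503 and 0.0732). Over all alternatives the value in fiPSC ran from 3.41 to 6.30. Quantile normalization gave 4.24 in SSCiPSC and 4.30 in fiPSC, with the calls kept. On the minus-strand locus, taken as an alternative after the data were seen, Pfkp was at 9.06, 8.67 and 8.6 FPKM in SSC, 261, 161 and 241 FPKM in SSCiPSC and 207, 234 and 238 FPKM in fiPSC. There the log2 fold change was 4.47 ± 0.20 (SE, limma adjusted p = 5.00e-05) in SSCiPSC and 4.54 ± 0.10 (adjusted p = 6.35e-06) in fiPSC. Between Pfkp and Pfkl the log2 ratio differed by 0.82 from SSC to SSCiPSC on the highest locus (exact permutation test, two-sided, p = 0.7), by -0.71 there without SSC replicate 1, and by 0.32 on the minus-strand locus (p = 0.1).

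**Figure D2:**
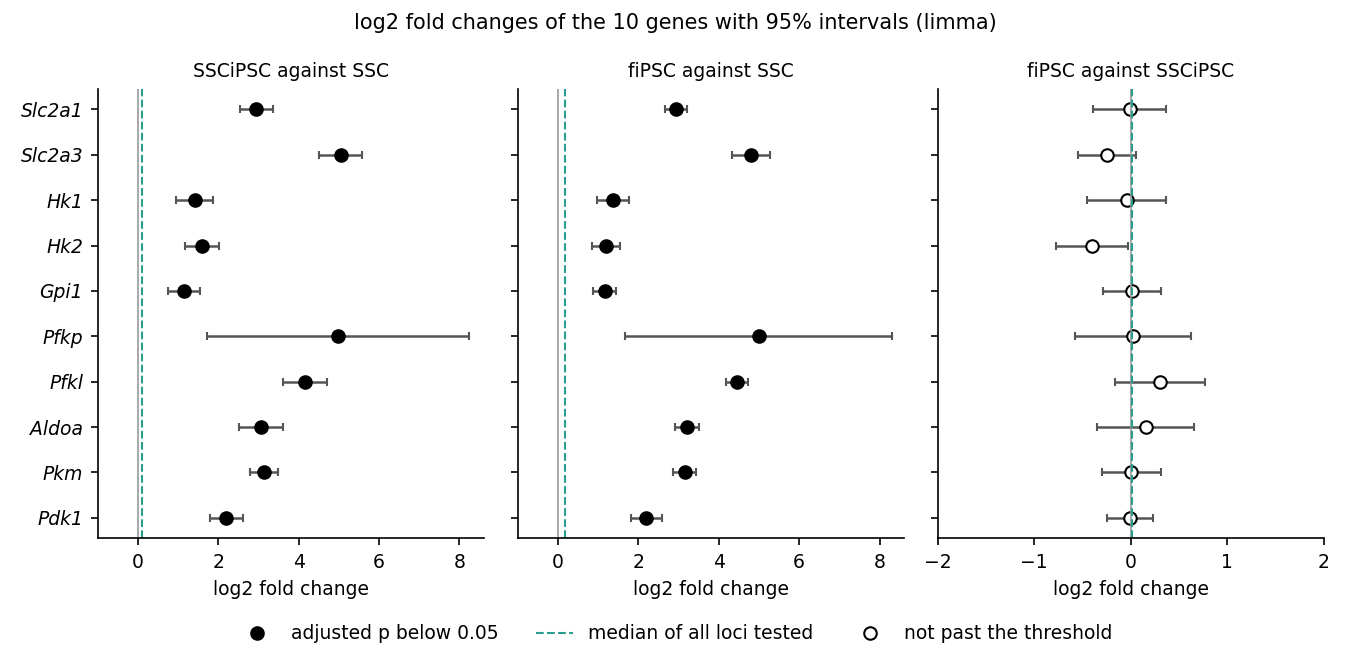
log2 fold change (horizontal axis) of each gene with its 95% interval from limma in SSCiPSC against SSC, fiPSC against SSC and fiPSC against SSCiPSC, the last on a narrower scale; filled points passed an adjusted p of 0.05 and the dashed line is the median of all loci tested. All 10 log2 fold changes lie above 1 in both comparisons with SSC, and the intervals of fiPSC against SSCiPSC stay between -0.78 and 0.77.

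Aldolase and pyruvate kinase were the most abundant of the 10 in every group. Aldoa (ENSMUSG00000030695, chr7:126795207-126800039, minus strand), which splits fructose 1,6-bisphosphate, was at 159, 195 and 180 FPKM in SSC, 1920, 1101 and 1575 FPKM in SSCiPSC and 1593, 1797 and 1600 FPKM in fiPSC. SSCiPSC replicate 2 was the lowest iPSC library and still 5.65-fold above the highest SSC library. Its log2 fold change was 3.06 ± 0.23 (SE, limma adjusted p = 0.000186) in SSCiPSC and 3.22 ± 0.12 (adjusted p = 3.10e-05) in fiPSC. After quantile normalization the values were 1.9 in SSCiPSC and 2.18 in fiPSC, still past the threshold. Against Gpi1, an enzyme of the same pathway, Aldoa stood at 2.30, 2.26 and 2.70 times the FPKM in SSC and at 11.0, 7.89 and 8.49 times in SSCiPSC. The log2 ratio of Aldoa to Gpi1 differed by 1.91 between SSCiPSC and SSC (exact permutation test, two-sided, p = 0.1, the smallest it can give, adjusted p = 0.188 over 15 tests).

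Pkm (ENSMUSG00000032294, chr9:59655810-59718777, plus strand), the pyruvate kinase of most tissues outside liver and red blood cells, was at 149, 150 and 123 FPKM in SSC, 1364, 1136 and 1251 FPKM in SSCiPSC and 1227, 1201 and 1330 FPKM in fiPSC. Its groups were far apart and its iPSC libraries close together. The log2 fold change was 3.14 ± 0.15 (SE, limma adjusted p = 5.39e-05) in SSCiPSC and 3.15 ± 0.12 (adjusted p = 3.22e-05) in fiPSC. Quantile normalization took the values to 2.03 and 2.12, still past the threshold. The locus also covered Gramd2, and a value per locus does not separate the M1 and M2 splice forms of Pkm.

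Pdk1 (ENSMUSG00000006494, chr2:71872521-71900682, plus strand), a kinase that inactivates pyruvate dehydrogenase, was at 28.6, 33.1 and 22.2 FPKM in SSC, 139, 124 and 130 FPKM in SSCiPSC and 125, 127 and 139 FPKM in fiPSC. All iPSC libraries were above all SSC libraries. Its log2 fold change was 2.2 ± 0.17 (SE, limma adjusted p = 0.000203) in SSCiPSC and 2.2 ± 0.16 (adjusted p = 0.000166) in fiPSC, and 1.59 and 1.67 after quantile normalization, both past the threshold. Pdk3, another kinase of the same complex, was at 28.2, 40.8 and 33.8 FPKM in SSC and 36.7, 24.6 and 32.4 FPKM in SSCiPSC, with overlap of the groups and a log2 fold change of -0.13 ± 0.21 (SE, limma adjusted p = 0.639). Pdk1 was thus near the level of Pdk3 in SSC (1.02, 0.813 and 0.658 times) and above it in SSCiPSC (3.80, 5.03 and 4.01 times) and in fiPSC (4.05, 4.5 and 6.11 times). The log2 ratio differed by 2.33 between SSCiPSC and SSC (exact permutation test, two-sided, p = 0.1, adjusted p = 0.188 over 15 tests).

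**Figure D3:**
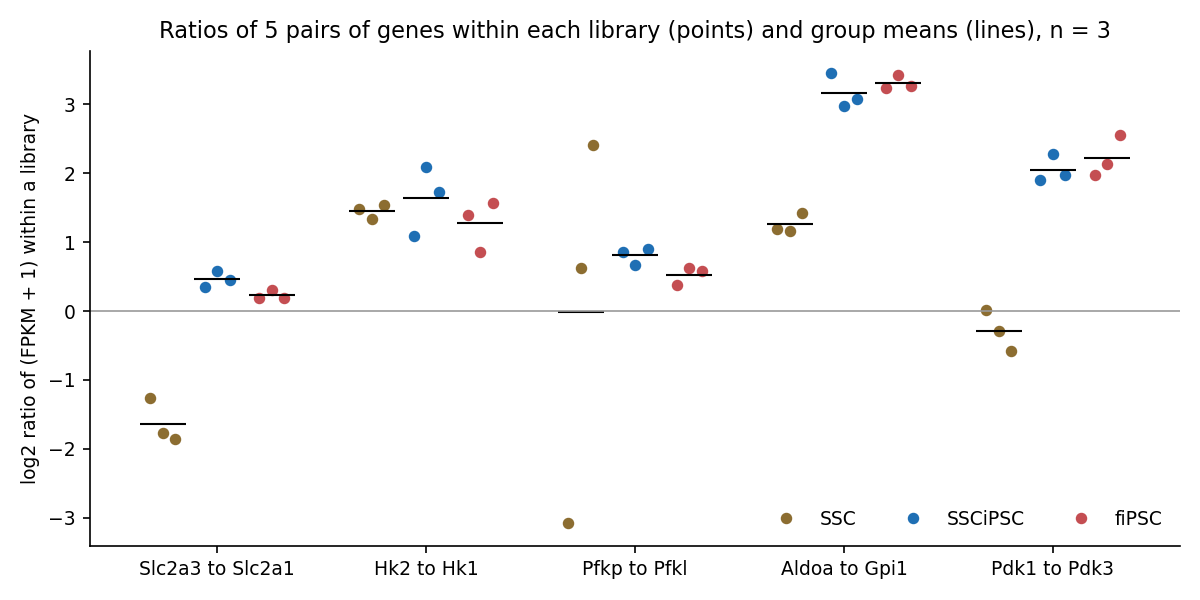
log2 ratio of (FPKM + 1) of 5 pairs of genes within each library (vertical axis), with points for the 3 libraries of SSC, SSCiPSC and fiPSC and a line for each mean. The ratios Slc2a3 to Slc2a1, Aldoa to Gpi1 and Pdk1 to Pdk3 are higher in all iPSC than in all SSC libraries, whereas Hk2 to Hk1 overlaps between groups and Pfkp to Pfkl spreads from -3.08 to 2.42 in SSC.

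In the order of levels, Aldoa came before Pkm, Gpi1 and Hk2 in SSC, with no overlap between these neighbours, and Pdk1, Slc2a1, Pfkp and Hk1 followed with overlapping ranges. Slc2a3 (8.41 FPKM ± 2.57, SD, n = 3) and Pfkl (8.06 FPKM ± 1.03, SD, n = 3) were lowest and overlapped too. In SSCiPSC the order was Aldoa, Pkm, Slc2a3, Pfkp, Slc2a1, Gpi1, Pfkl, Pdk1, Hk2 and Hk1. There, Pkm was separate from Slc2a3 and Hk2 from Hk1, and the other neighbours overlapped. Slc2a3 therefore moved from the ninth to the third place and Gpi1 from the third to the sixth. Hk1 was the lowest of the 10 in both iPSC groups.

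Levels in fiPSC stood close to those in SSCiPSC. Each of the 10 genes rose from SSC to fiPSC as well, by 2.24-fold (Gpi1) to 30.3-fold (Slc2a3) in the ratio of group means, beside 28.0% of 38007 loci called higher, and no gene overlapped between these groups, beside 33.1% of loci. The call of Pfkp depended on the settings named above. Both comparisons used the same SSC libraries and are not independent. Between fiPSC and SSCiPSC, 0 of the 10 genes passed the threshold in limma, as 0.0678% of 33948 loci did, and all 10 overlapped between the groups (18.6% of loci did not). Hk2 was the only gene with an unadjusted p below 0.05, as 11.7% of loci had (0.0368, limma adjusted p = 0.39), at a log2 fold change of -0.41 with a 95% interval from -0.78 to -0.033. The intervals of Pdk1 (-0.25 to 0.23), Slc2a3 (-0.55 to 0.053), Gpi1 (-0.29 to 0.31) and Pkm (-0.30 to 0.31) were the narrowest, and Pfkl had the interval that reached highest, from -0.17 to 0.77. Differences within these intervals were compatible with the values of 3 libraries per group, so equal levels were not shown. The ratio of Slc2a3 to Slc2a1 was higher in all SSCiPSC than in all fiPSC libraries, with a difference of -0.24 (log2, fiPSC minus SSCiPSC, exact permutation test, two-sided, p = 0.1, adjusted p = 0.188 over 15 tests). That of Pfkp to Pfkl was so too, with a difference of -0.28 (the same p and adjusted p).

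SSCiPSC replicate 2 was the lowest of the 3 SSCiPSC libraries for 9 of the 10 genes, whereas Hk2 was highest there. Among the 10679 loci with a mean of at least 10 FPKM in SSCiPSC, 28.9% were lowest and 45.2% highest in this library. Its depth, given above, was the lowest of the 3 but close to the others, and the part of depth in these levels was not tested. The spread of Aldoa in SSCiPSC, 1532 FPKM ± 411 (SD, n = 3), compared with 1664 FPKM ± 116 (SD, n = 3) in fiPSC, and the coefficient of variation was lower in fiPSC for all 10 genes, for Pdk1 only just (5.93% beside 6.0%). This was common, since 72.5% of the 10014 loci with a mean of at least 10 FPKM in both groups had the lower coefficient in fiPSC. For Aldoa, leaving SSCiPSC replicate 2 out moved the difference of fiPSC from SSCiPSC from 0.15 to -0.066 (log2), and neither passed the threshold.

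**Figure D4:**
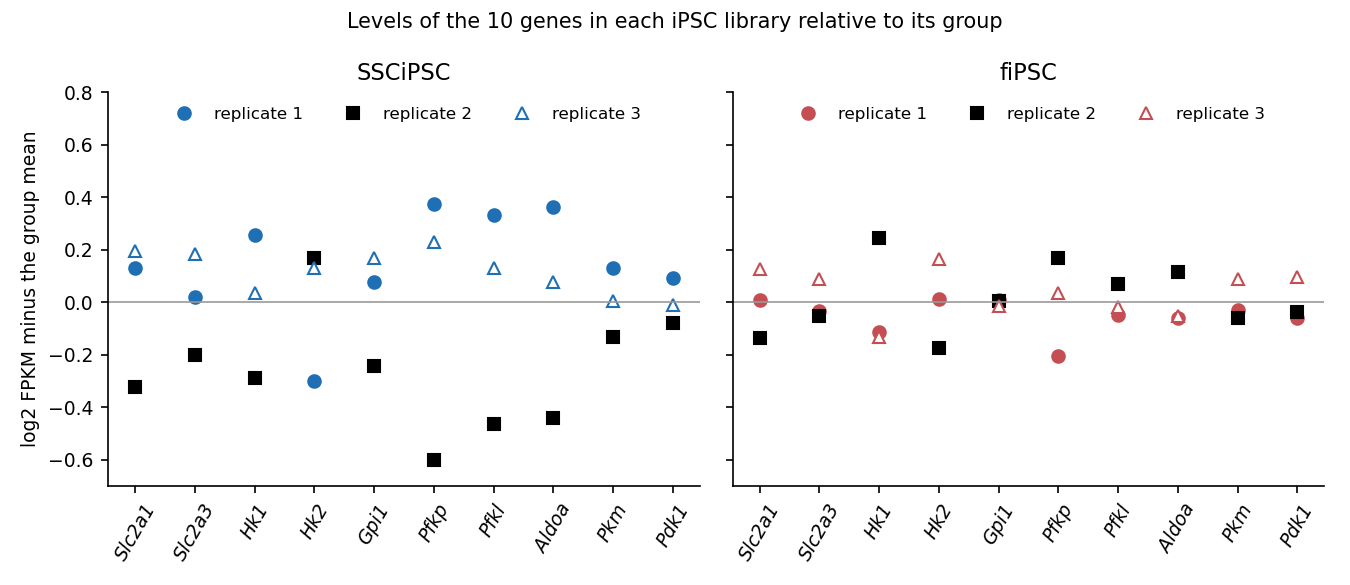
log2 FPKM of each gene minus the mean of its group (vertical axis) in the 3 SSCiPSC libraries (left) and the 3 fiPSC libraries (right), with 1 symbol per replicate. SSCiPSC replicate 2 (black squares) is lowest for 9 of 10 genes, and the fiPSC points vary less for all 10 genes.

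The genes with the most similar pattern over the 9 libraries were searched among 5915 named genes outside the pathway lists. Their Pearson r with log2(FPKM + 1) ran from 0.992 to 0.999. They were Vps35 for Slc2a1, Mettl17 for Slc2a3, 2700049A03Rik for Hk1, Ddx3x for Hk2, Mphosph6 for Gpi1, Fundc2 for Pfkp, Aire for Pfkl, Gpx4 for Aldoa, Upp1 for Pkm and Suclg2 for Pdk1. An r of at least 0.9 was common, reached by 27.9% to 36.0% of the genes searched for 9 of the members and by 5.95% for Pfkp, and the 9 points share their libraries and the gap in level and depth between SSC and iPSC.

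Other genes of the pathway were described from lists of neighbouring steps, by SSCiPSC against SSC unless stated, where 26.2% of all loci were called higher and 24.1% lower. Of the other SLC2A transporters, 6 of 10 had a locus and only Slc2a8, an intracellular transporter, passed the filter on low values, rising by 0.74 ± 0.23 (log2, SE) from 2.75 to 5.30 FPKM. The 5 others with a locus stayed at or under 1.89 FPKM in all 9 libraries, whereas Slc2a1 and Slc2a3 were at 174 FPKM or more in every iPSC library. The other isoenzymes of the same steps gave 2 tested genes, of which Adpgk, an ADP-dependent glucokinase, rose by 1.25 ± 0.14 (log2, SE).

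In lower glycolysis, 2 of 5 tested genes rose and 1 fell. Eno1, the enolase of most tissues, rose by 3.72 ± 0.16 (log2, SE) and Tpi1, the triose phosphate isomerase whose locus also covers Usp5, by 3.31 ± 0.23. Eno3, the muscle enolase on a locus shared with Rnf167, fell by 0.54 on the log2 scale (limma adjusted p = 0.0385). Gapdh, Pgk1 and Pgam1 were not analysed here. All 6 tested genes of lactate formation and transport rose (beside 26.2% of all loci), with a median log2 fold change of 2.16 beside 0.11 over all loci. Ldha, which makes lactate from pyruvate, went from 28.0 to 544 FPKM (log2 fold change 4.17 ± 0.29, SE, limma adjusted p = 0.000147), and Slc16a3, a lactate exporter, from 3.97 to 48.2 FPKM. Ldhb (1.65 ± 0.27), the lactate dehydrogenase subunit of heart, and Bsg (1.39 ± 0.18) and Emb (2.24 ± 0.13), chaperones of monocarboxylate transporters, rose too.

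**Figure D5:**
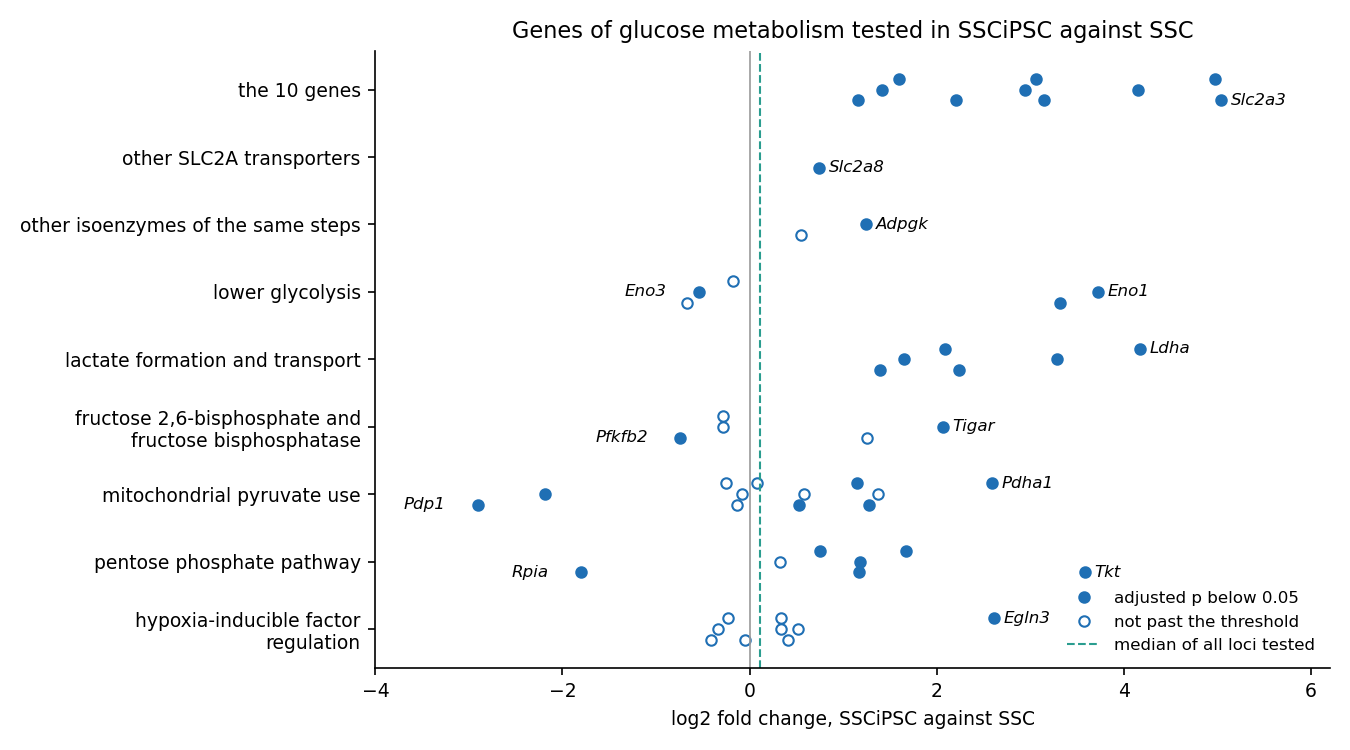
log2 fold change in SSCiPSC against SSC (horizontal axis) of every tested gene of 9 lists of glucose metabolism (rows), with filled points past an adjusted p of 0.05, the extreme called genes named, and a dashed line at the median of all loci tested (0.11). The 10 genes and the 6 lactate genes lie wholly to the right, while mitochondrial pyruvate use runs from Pdp1 at -2.90 to Pdha1 at 2.59.

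Genes of mitochondrial pyruvate use went both ways, 4 rising, 2 falling and 6 not past the threshold of 12 tested, which is near the shares over all loci (26.2% higher, 24.1% lower). Pdha1, Pdhb and Dlat, subunits of the pyruvate dehydrogenase complex, rose by 2.59 ± 0.15, 1.27 ± 0.19 and 1.15 ± 0.19 (log2, SE). Pdp1, the phosphatase that reactivates that complex, fell by 2.90 on the log2 scale from 33.9 to 3.65 FPKM (limma adjusted p = 8.12e-05). Mpc2, a subunit of the mitochondrial pyruvate carrier, fell by 2.19 from 39.5 to 7.99 FPKM (adjusted p = 0.000308). The kinase Pdk1 and the phosphatase Pdp1 of the same complex thus changed in opposite directions. The other kinases Pdk2, Pdk3 and Pdk4 and the phosphatase Pdp2 did not pass the threshold (log2 fold changes between -0.25 and 0.083). In fiPSC Pdha1 was at 78.9, Pdp1 at 3.45 and Mpc2 at 6.85 FPKM.

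Of the genes that make or remove fructose 2,6-bisphosphate, the activator of phosphofructokinase, or that oppose the enzyme, 1 of 5 rose and 1 fell. Tigar, a phosphatase of this sugar, rose by 2.06 ± 0.18 (log2, SE), and Pfkfb2, on a locus shared with Gm29427, fell by 0.74. In the pentose phosphate pathway, which branches off at glucose 6-phosphate, 5 of 7 rose and 1 fell, beside 26.2% and 24.1% of all loci. Tkt, the transketolase, went from 24.0 to 300 FPKM (3.58 ± 0.14), and Taldo1 and Rpe rose by 1.18 ± 0.13 and 1.67 ± 0.23, whereas Rpia fell by 1.80 (limma adjusted p = 0.0128). Among 9 genes of hypoxia-inducible factor regulation 1 rose, the prolyl hydroxylase Egln3, from 2.48 to 20.4 FPKM (log2 fold change 2.62 ± 0.34, SE, adjusted p = 0.00109), and 8 did not pass the threshold. In fiPSC 4 of these 9 passed it against SSC, Egln3 (2.73 ± 0.26, log2, SE) and Arnt (0.53 ± 0.14), the partner subunit of the factors, being higher, and Hif1a (-0.57 ± 0.12), an oxygen-regulated subunit, and Hif1an (-0.41 ± 0.13) lower. These counts are near the shares over all loci in that comparison (28.0% higher, 23.7% lower). Hif1a was at -0.41 ± 0.15 in SSCiPSC (limma adjusted p = 0.0623), and these genes of fiPSC were named after their values were seen.

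Over the 8 lists beside the 10 genes, 21 of 47 tested genes were higher and 5 lower in SSCiPSC than in SSC, and 24 were higher and 7 lower in fiPSC, where 28.0% of all loci were called higher and 23.7% lower. Among 1 locus per protein-coding gene, 3964 of 11277 (35.2%) were higher and 3079 lower in SSCiPSC. In fiPSC 4144 of 11395 such loci were higher and 3267 lower. In fiPSC against SSCiPSC 0 of 48 tested genes passed the threshold in limma, beside 0.0678% of all loci, and 3 had an unadjusted p below 0.05, beside 11.7% of all loci (Slc16a1, Pdhx and Hif3a, named after their values were seen).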

How the data were processed

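RNA-seq of 9 libraries (3 SSC, 3 SSCiPSC, 3 fiPSC), grouped by the cell type in the labels, was analysed from the table of FPKM values deposited by the authors, with 1 value per locus and library. According to the submitters' processing notes, reads were trimmed with Trimmomatic 0.32, aligned with TopHat2 2.0.9 and Bowtie2 2.1.0, and assembled and quantified with Cufflinks 2.2.1. The deposited summary of the Cuffdiff run was not used.

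The notes name mm9, but the loci follow GRCm38. Of 16363 loci in the stranded parts of the table, 3038 matched both ends of a GRCm38 protein-coding gene within 300 bp, and after a shift of 1000000 bp only 3 did. Of 54914 loci, 1 with a blank value was left out, 38550 (70.2%) have no strand, and 23605 share an interval with another locus. A locus was named for a gene when it held at least 50% of the longest coding sequence and was not in the part of the opposite strand. The columns without a sample numbered 0.

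Groups were compared in pairs with limma 3.58.1 in R 4.3.3 (eBayes with a trend) on log2(FPKM + 1), so that fold changes of low genes are understated. A locus entered when 3 or more of the 6 libraries had 1 FPKM or above, and p-values were adjusted over all of them by Benjamini-Hochberg with a threshold of 0.05. Ratios of 2 genes within a library were compared by an exact two-sided permutation test over libraries, with Benjamini-Hochberg adjustment over 15 tests, using Python 3.11.15, numpy 2.4.6, pandas 2.3.3, scipy 1.17.1 and matplotlib 3.10.9. The limma fit was tested on simulated data, and the permutation test on small fixed sets with a known answer. FPKM are not counts, so no count model was used, and depth was estimated from the steps of the low values.

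The 10 genes, the pathway lists and the marker lists were chosen with earlier results of these data known. Named from each other pathway list were up to 3 rising and 3 falling genes past the threshold in SSCiPSC against SSC with the largest change, any called gene with a group mean of at least 100 FPKM, and from marker lists the most abundant gene and those at 0. The gene most similar to each of the 10 had the highest Pearson r among named genes with a mean of at least 10 FPKM. Repeats left out each library in turn, took the sum of all loci of a gene or 1 locus per named gene, used the replicate number as a block, fitted all 9 libraries together, dropped the trend of eBayes, scaled by median ratios or by quantile normalization, filtered by a mean of 5 FPKM or not at all, and set the pseudocount to 0.1. The locus with a strand was added after the data were seen.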

Additional observations from a re-analysis of the deposited data

How the results depend on the processing

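All 10 genes were past the threshold in both comparisons with SSC under 8 of the 10 other settings that kept every library, not counting the locus with a strand. With a pseudocount of 0.1 there were 9 in each, without Pfkp (adjusted p = 0.0701 and 0.0722), and with quantile normalization 9 in SSCiPSC, without Gpi1. Leaving out a library gave 9 to 10 genes, Pfkp being lost without any SSCiPSC library, without any fiPSC library and, in fiPSC, without SSC replicate 2 (adjusted p = 0.0503). Its locus with a strand was not refitted with libraries left out. In fiPSC against SSCiPSC the count was 0 under every alternative. Scaling by median ratios took the median over all loci from 0.11 to 0.23 in SSCiPSC and from 0.17 to 0.30 in fiPSC against SSC, and quantile normalization moved it to 0.053 and 0.045.

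Signs changed only in fiPSC against SSCiPSC and in ratios, and the cause was not tested. With quantile normalization the log2 fold change was 0.10 (Slc2a1), 0.040 (Hk1) and 0.11 (Pdk1), and with summed loci 0.0074 (Pdk1). Leaving out a library gave ranges of -0.17 to 0.086 (Slc2a1), -0.19 to 0.081 (Hk1), -0.054 to 0.039 (Pdk1), -0.11 to 0.091 (Gpi1), -0.28 to 0.20 (Pfkp), -0.066 to 0.33 (Aldoa) and -0.062 to 0.070 (Pkm). The ratio of Aldoa to Gpi1 in fiPSC against SSCiPSC was -0.080 with summed loci. Leaving out a library, the ratio of Hk2 to Hk1 ran from -0.041 to 0.46 in SSCiPSC and from -0.32 to 0.028 in fiPSC, and that of Pfkp to Pfkl from -0.71 to 2.04 and from -0.99 to 1.76, each against SSC, the negative Pfkp values without SSC replicate 1.

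The replicate block left all counts unchanged, with 10, 10 and 0 genes past the threshold. For the ratio of Slc2a3 to Slc2a1 in SSCiPSC against SSC the block could not move the difference of 2.1. The mean of paired differences always equals the difference of the group means. The exact sign-flip permutation gave p = 0.25, the smallest p that 3 pairs allow. Deviations from the group means correlated from -0.29 to 0.02 for same-numbered libraries and from -0.13 to 0.21 for the other pairs. With 3 libraries per group such values cannot tell whether libraries were paired, and the labels do not state it. Depth limits low values most in SSC, where 1 fragment per kilobase was worth 0.216 to 0.723 FPKM, beside at most 0.0754 FPKM in iPSC.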

Other observations

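SSCiPSC replicate 2, which was lowest of its group for 9 of the 10 genes, was also lowest for 5 of the 6 genes of lactate formation and transport with a mean of at least 10 FPKM in SSCiPSC, led by Ldha at 334 FPKM there and at 681 and 617 FPKM in replicates 1 and 3. Of 6 genes of mitochondrial pyruvate use at that level, 1 was lowest and 4 were highest in this library, among them Pdha1 at 116 FPKM beside 87.6 and 89.9 FPKM. Of 3 genes of lower glycolysis 2 were lowest and 1, Eno3, was highest there. In the pentose phosphate pathway 2 of 5 genes were lowest and 2 highest there, and in hypoxia-inducible factor regulation 2 of 7 were lowest and 3 highest. Of all loci at that level, 28.9% were lowest and 45.2% highest in this library. These are values of 1 library, and the difference from the others was not tested.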
